A study of Homo sapiens with 28 samples.

Results

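The 44 genes described here encode the enzymes that load amino acids onto tRNA and the factors that start translation. They comprise 19 cytosolic aminoacyl-tRNA synthetases, 6 mitochondrial synthetases and 19 initiation factors or their regulators. Members were found by gene symbol among 22277 probe sets, the groups of short oligonucleotides that each give 1 signal on the array. Of the 44 genes, 39 had a probe set naming that gene alone and all 39 passed the filter on low signal, out of 8024 genes tested in the series. FARSB had no probe set, and MARS1, QARS1, EIF4A1 and EIF4A2 lay on probe sets that name several genes and are given no value.

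Aminoacyl-tRNA synthetases join each amino acid to its matching tRNA, in the cytosol or in mitochondria, and fall into a class I and a class II by the fold of the catalytic domain. Initiation factors bring the initiator tRNA to the ribosome (eIF2, recycled by eIF2B), read the start codon (eIF1, eIF1A, eIF5), hold the small subunit (eIF3) and load the capped mRNA (eIF4E, eIF4G). When eIF2 is phosphorylated, general translation slows while the transcription factor ATF4 is made, and many cytosolic synthetase genes are known ATF4 targets, as is EIF4EBP1, which restrains eIF4E.

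RNA was measured on 28 one-colour Affymetrix arrays of A549 and H1299, both established human non-small cell lung cancer lines, A549 with and H1299 without the p53 protein. Each line received azacitidine (AZA) or decitabine (DAC) at 0.3, 1 or 3 µM, or the vehicle dimethyl sulfoxide, for 48 h with drug renewed every 24 h. The drugs are cytidine analogs that differ in the sugar: azacitidine carries ribose and enters mostly RNA, decitabine carries deoxyribose and enters DNA, where both inhibit DNA methyltransferases. Each of the resulting 14 groups was measured on 2 arrays. The labels do not say that these came from separate cultures, so each p measures the spread between these samples only. Comparisons of the drugs and doses with vehicle share the 2 vehicle arrays of a line.

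Values are MAS5 signal, a linear brightness that the authors scaled to a common trimmed mean on every array. Differences were tested on log2(signal + 32) with limma across all 8024 genes, and a gene is called changed where the Benjamini-Hochberg adjusted p is under 0.05, two-sided. The median signal of the arrays ran from 92.7 to 123, and the ratio of 3' to 5' GAPDH probe sets from 0.926 to 1.21. That ratio was 1.18 and 1.21 on the H1299 arrays with 3 µM azacitidine, against 0.944 and 0.976 on the H1299 vehicle arrays, and 1.06 and 1.11 against 0.992 and 1.01 in A549. The 3' to 5' ratio of ACTB was 4.90 and 5.36 with 3 µM azacitidine against 3.40 and 3.08 with vehicle in A549, and 6.28 and 6.21 against 4.59 and 6.05 in H1299. The part of these shifts in the member values was not tested. Of 17 markers of these lines and of other cell types, 8 passed the filter, among them the epithelial keratins KRT8 and KRT18 and the mesenchymal VIM. The lung marker SFTPB passed it too, at 74.9 to 234 in A549 and 58.8 to 126 in H1299. So did the fibroblast marker COL1A1, at 212 to 331 and 123 to 185. The leukocyte markers PTPRC, CD3E, CD14 and CD2, the endothelial PECAM1 and the lung markers SFTPC and NKX2-1 did not pass it, and CDH1 did not exceed 14.5 in H1299. With 3 µM azacitidine 0 of the 8 rose and 4 fell in A549, and 0 rose and 2 fell in H1299. With 3 µM decitabine 3 rose and 1 fell in A549 and 4 rose and 0 fell in H1299, among them the epithelial genes EPCAM (log2 2.30 and 2.51) and KRT19 (2.08 and 2.35). Their part in the member values was not tested.

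Most of the cytosolic synthetases rose with 3 µM azacitidine in both lines, and few did with decitabine. At 3 µM azacitidine, 12 of the 16 cytosolic synthetases tested rose and 1 fell in A549, where 22.1% of all genes were called higher and 16.2% lower. In H1299, 10 rose and 1 fell, against 32.3% and 21.6% of all genes. With 3 µM decitabine 2 of the 16 rose and 3 fell in A549, against 15.0% and 10.8% of all genes, and 2 rose and 5 fell in H1299, against 16.3% and 14.6%. Of the mitochondrial synthetases and the initiation factors, 3 of 6 and 10 of 17 rose with 3 µM azacitidine in A549, and 3 of 6 and 8 of 17 in H1299. The roles were not tested against each other.

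**Figure D1:**
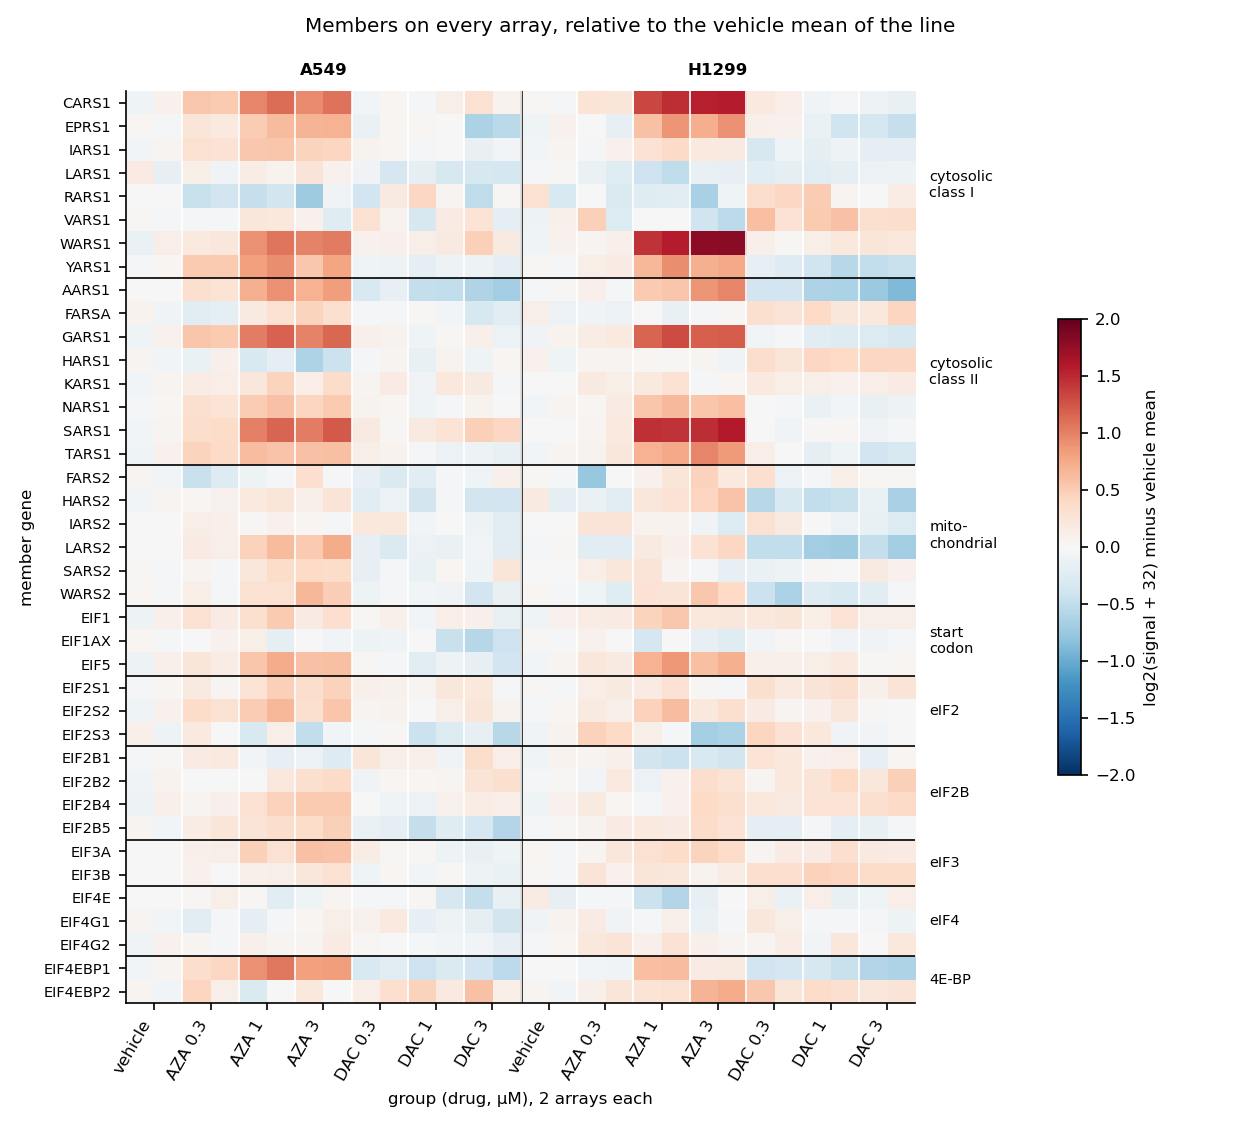
Heat map of the 39 members (vertical, grouped by role) on all 28 arrays (horizontal, 2 per group), coloured by log2(signal + 32) minus the mean of that line's vehicle arrays. The columns of 1 and 3 µM azacitidine (AZA) hold the darkest reds, in the cytosolic synthetases and EIF4EBP1, while AARS1 and EIF4EBP1 are blue with decitabine (DAC).

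The number of members called grew with azacitidine dose. In A549, 9 of 39 members rose at 0.3 µM and 0 fell, with limma calling 1.17% of all genes higher and 1.27% lower (at an unadjusted p under 0.05, 14 members were higher and 0 lower). The percentages of all genes, here and below, are at the adjusted threshold and give no background for counts at an unadjusted p. At 1 µM, 21 rose and 0 fell, against 13.1% and 12.1% of all genes (23 and 1 at an unadjusted p under 0.05). At 3 µM, 25 rose and 1 fell, against 22.1% and 16.2%; without replicate 2 of that group, 3 members were called lower. The median log2 difference of the members was 0.12, 0.31 and 0.39 at the 3 doses, beside a median of 0.06 over all genes at 3 µM.

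In H1299 the members were called higher at the lowest azacitidine dose about as often as all genes were. At 0.3 µM, 1 of 39 rose and 0 fell, while limma called 2.46% of all genes higher and 3.22% lower (6 and 0 members at an unadjusted p under 0.05). At 1 µM, 17 rose and 3 fell, against 19.9% and 15.4% of all genes, and at 3 µM, 21 rose and 4 fell, against 32.3% and 21.6%. Without vehicle replicate 1, or without replicate 2 of the 3 µM group, 2 members were called lower. When every array was centred on its own median, 14 members were called higher and 6 lower at 3 µM, and 25.6% of all genes were higher and 27.9% lower. That centring moved the median over all genes from 0.08 to -0.05 and the members' median from 0.26 to 0.14.

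With decitabine, members were called in both directions, and in A549 more fell than rose at 3 µM. At 0.3 and 1 µM in A549 the share of members called lower was near that of all genes. In A549, limma called 0 members higher and 1 lower at 0.3 µM (1 and 3 at an unadjusted p under 0.05), against 4.31% and 3.38% of all genes. At 1 µM, 1 rose and 3 fell (9.78% and 6.79% of all genes), and at 3 µM, 3 rose and 9 fell (15.0% and 10.8%). The count of 3 was 1 without vehicle replicate 1 or without replicate 1 of the 3 µM group, and 5 without replicate 2 of that group. In H1299, 4 rose and 5 fell at 0.3 µM (8.90% of all genes in each direction), 8 rose and 6 fell at 1 µM (11.8% and 11.6%), and 5 rose and 9 fell at 3 µM (16.3% and 14.6%). At 3 µM in H1299, 3 members were called higher without vehicle replicate 1 or without replicate 2 of the drug group, and 5 were called lower without the latter. Each gene is represented by its brightest probe set. Of the 17 members with several probe sets above the filter, 1 in A549 and 3 in H1299 were called with 3 µM azacitidine by another probe set alone, and 3 and 5 with 3 µM decitabine, in a check added after seeing the data.

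The cytosolic synthetases with the largest rises were SARS1, WARS1, CARS1 and GARS1, which charge the tRNAs of serine, tryptophan, cysteine and glycine. SARS1 signal in A549 was 1073 and 1172 with vehicle, 1442 and 1452 with 0.3 µM azacitidine, 2290 and 2541 with 1 µM, and 2318 and 2663 with 3 µM. The arrays of each azacitidine dose lay above both vehicle arrays, and most of the rise was present at 1 µM. The difference at 3 µM was 2.18-fold (log2 1.13, 95% confidence interval 0.96 to 1.29, limma adjusted p = 8.41e-10). In H1299, SARS1 signal was 1746 and 1744 with vehicle, 1806 and 1997 with 0.3 µM, 4867 and 4826 with 1 µM, and 4887 and 5313 with 3 µM. The step in H1299 fell between 0.3 and 1 µM, and the 3 µM difference was 2.89-fold (log2 1.53, interval 1.37 to 1.69, adjusted p = 1.20e-12).

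WARS1 gave the largest member difference among the 23 comparisons. Its H1299 signal was 903 and 1025 with vehicle, 1006 and 1040 with 0.3 µM azacitidine, 2682 and 2935 with 1 µM, and 3395 and 3436 with 3 µM, a 3.47-fold rise (log2 1.79, interval 1.60 to 1.99, adjusted p = 1.87e-12). In A549 the vehicle arrays read 757 and 926 and the 3 µM arrays 1703 and 1760, a 2.03-fold rise (log2 1.02, interval 0.82 to 1.22, adjusted p = 4.55e-08). No WARS1 array with 1 or 3 µM azacitidine overlapped the vehicle arrays of its line. A second WARS1 probe set rose less, by 0.65 in A549 and 1.48 in H1299 on the log2 scale.

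CARS1 signal in H1299 was 2226 and 2134 with vehicle, 2629 and 2584 with 0.3 µM azacitidine, 5553 and 6136 with 1 µM, and 6433 and 6539 with 3 µM. These arrays separated by dose group without overlap, and the 3 µM rise was 2.95-fold (log2 1.56, interval 1.39 to 1.73, adjusted p = 1.83e-12). In A549, CARS1 rose already at 0.3 µM, from 2794 and 3128 to 4290 and 4276 (log2 0.53, adjusted p = 0.00109), and reached 5698 and 6299 at 3 µM (log2 1.01, adjusted p = 7.00e-09). Its second probe set gave 1.04 in A549 and 1.88 in H1299 at 3 µM.

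GARS1, which also works in mitochondria, went in A549 from 3559 and 4057 with vehicle to 5625 and 5465 at 0.3 µM azacitidine, 7770 and 8634 at 1 µM, and 7573 and 8480 at 3 µM. The 1 and 3 µM arrays overlapped each other and lay above the rest, with a 2.10-fold rise at 3 µM (log2 1.07, interval 0.90 to 1.24, adjusted p = 4.71e-09). In H1299 it went from 4527 and 5034 to 10732 and 11811 at 1 µM and 10972 and 11038 at 3 µM (2.30-fold, log2 1.20, adjusted p = 1.47e-10).

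**Figure D2:**
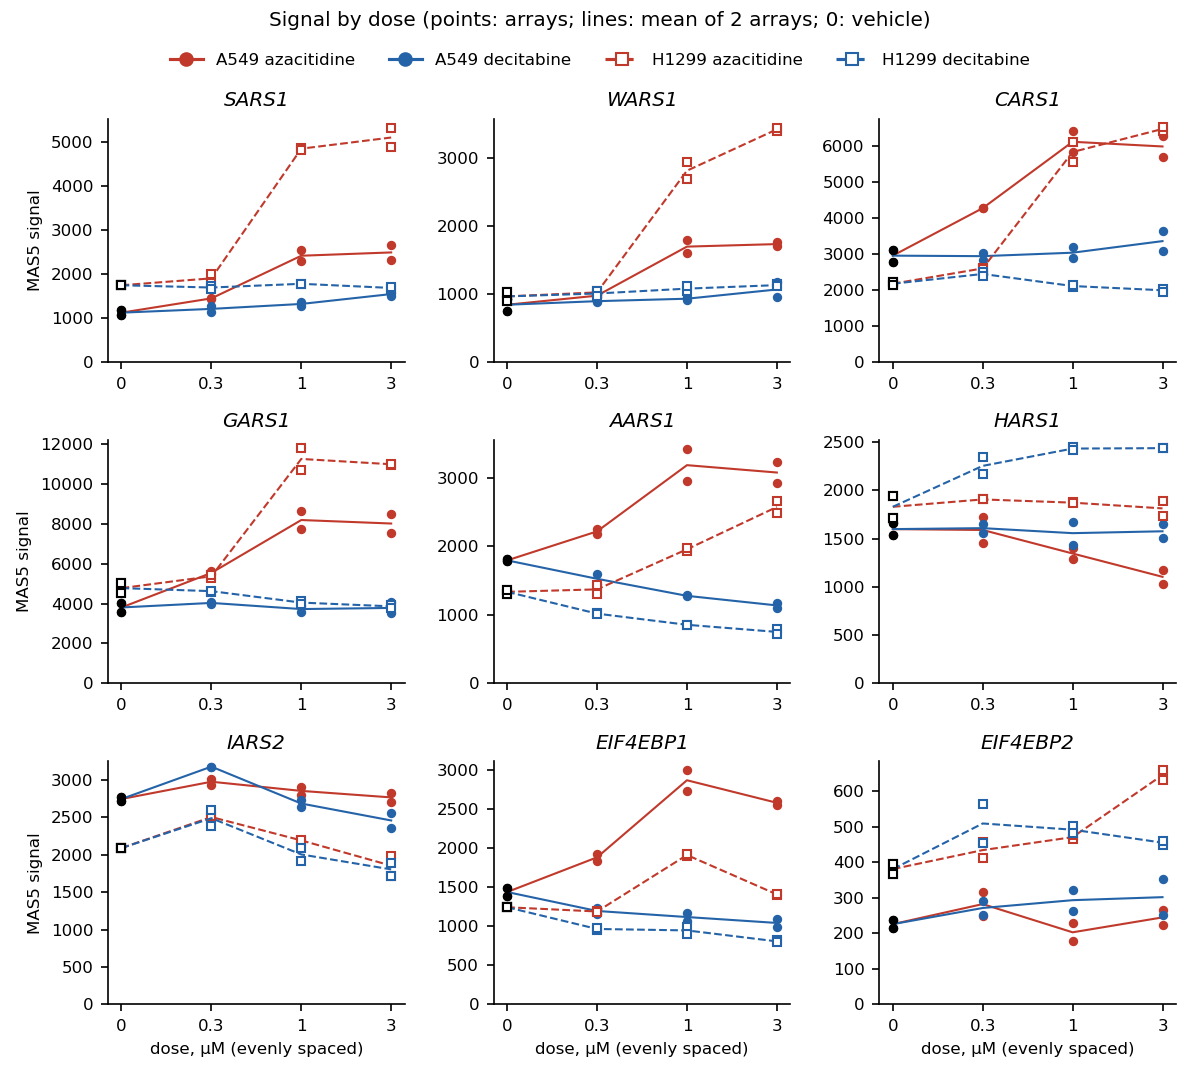
MAS5 signal (vertical, linear, each panel from 0) against dose in µM (horizontal, evenly spaced, 0 is vehicle) for 9 members; filled circles and solid lines are A549, open squares and dashed lines H1299, black vehicle, red azacitidine, blue decitabine, and lines join the means of 2 arrays. For SARS1, WARS1, CARS1 and GARS1 the azacitidine lines at 1 and 3 µM lie above the decitabine lines, while AARS1 and EIF4EBP1 part in both directions from vehicle.

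AARS1, the alanine enzyme, rose with azacitidine and fell with decitabine in both lines. In A549 it read 1781 and 1809 with vehicle, 2921 and 3236 with 3 µM azacitidine (log2 0.77, interval 0.60 to 0.93, adjusted p = 1.55e-07), and 1172 and 1102 with 3 µM decitabine (log2 -0.65, interval -0.81 to -0.48, adjusted p = 3.76e-06). In H1299 it read 1311 and 1360 with vehicle, 2486 and 2664 with azacitidine (log2 0.93, adjusted p = 2.61e-09), and 787 and 713 with decitabine (log2 -0.81, interval -0.97 to -0.65, adjusted p = 7.96e-08). The 3 treatments did not overlap in either line. Decitabine arrays of AARS1 were below vehicle at every dose, at 1454 and 1598, 1282 and 1272, then 1172 and 1102 in A549, and at 1021 and 1013, 857 and 851, then 787 and 713 in H1299.

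The other cytosolic synthetases that rose with 3 µM azacitidine in both lines were TARS1, YARS1, EPRS1, NARS1 and IARS1. These charge the tRNAs of threonine, tyrosine, glutamate with proline (EPRS1 holds both enzymes in 1 chain), asparagine and isoleucine. TARS1 rose by 0.59 in A549 and 0.92 in H1299 on the log2 scale, YARS1 by 0.67 and 0.73, EPRS1 by 0.68 and 0.82, and NARS1 by 0.47 and 0.57. The other probe sets of EPRS1 did not all move alike: with 3 µM in A549, 1 stood at -0.31 with azacitidine and another at 0.09 with decitabine, neither called. IARS1 rose by 0.43 in A549 and 0.19 in H1299. Median centring ended its H1299 call (limma adjusted p = 0.558), as did leaving out vehicle replicate 1 (0.207) or either 3 µM azacitidine array (0.101 and 0.0915). EPRS1 went in A549 from 2437 and 2303 with vehicle to 3811 and 3838 with azacitidine and to 1520 and 1624 with decitabine, 3 levels that did not overlap.

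FARSA and KARS1 rose slightly in A549 and were not called in H1299. FARSA, the catalytic subunit for phenylalanine, rose by 0.39 in A549 (adjusted p = 0.00516), and KARS1, the lysine enzyme, by 0.25 (adjusted p = 0.0422). Both A549 calls were lost without 1 array: FARSA without vehicle replicate 2 or 3 µM replicate 1, KARS1 without either vehicle array or 3 µM replicate 2. In H1299 their differences were -0.01 (interval -0.22 to 0.20) and -0.00 (interval -0.20 to 0.19). The line difference was called for FARSA and not for KARS1 (-0.25).

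HARS1 and VARS1 went against the group. HARS1, the histidine enzyme, fell in A549 from 1665 and 1533 with vehicle to 1034 and 1174 with 3 µM azacitidine, a log2 difference of -0.52 (interval -0.71 to -0.33, adjusted p = 1.17e-04). In H1299 the azacitidine arrays, at 1889 and 1739, overlapped the vehicle arrays at 1945 and 1716, while 3 µM decitabine raised HARS1 to 2437 and 2441 (log2 0.41, adjusted p = 0.00178). VARS1, the valine enzyme, fell in H1299 from 1004 and 1148 to 808 and 735 with azacitidine (log2 -0.46, interval -0.86 to -0.07, adjusted p = 0.0444), a call lost without any 1 of the 4 arrays. RARS1, the arginine enzyme, varied widely between arrays of 1 group, as at 1506 and 2357 in A549 with 3 µM azacitidine, and its differences from vehicle of -0.39 and -0.37 were not called. LARS1, the leucine enzyme, was not called with 3 µM azacitidine in either line, at 0.17 (interval -0.04 to 0.38) and -0.16 (interval -0.37 to 0.05).

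Several synthetases sit together in a multisynthetase complex, a property that played no part in choosing the members. Of the 5 tested enzymes of the complex (EPRS1, IARS1, KARS1, LARS1 and RARS1), 3 rose with 3 µM azacitidine in A549 and 2 in H1299, with median log2 differences of 0.25 and -0.00, beside 22.1% and 32.3% of all genes called higher. Of the 11 tested cytosolic enzymes outside it, 9 rose in A549 and 8 in H1299, with medians of 0.67 and 0.92. EPRS1, which joins the glutamate and proline enzymes, was counted in class I alone. The 8 class I and the 8 class II enzymes had medians of 0.55 and 0.53 in A549 and 0.46 and 0.75 in H1299. These counts are descriptions of small sets and were not tested against each other.

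The promoters of the synthetases are shown because most of these genes moved together with azacitidine. The core of the CEBP-ATF response element, a site that ATF4 with a C/EBP partner is known to bind, was searched as TGATGNAA on both strands (reverse complement TTNCATCA) in RefSeq windows of 250 bases before to 50 after each annotated start (GRCh38.p14). It was found in at least 1 window of 6 of 13 tested cytosolic synthetases with a promoter in the table (46.2%), 0 of 6 mitochondrial synthetases and 0 of 14 initiation factors, and in 1217 of all 27305 genes (4.46%). All 6 genes with the core (AARS1, CARS1, GARS1, IARS1, NARS1 and TARS1) were called higher with 3 µM azacitidine in both lines, as were EPRS1, SARS1 and WARS1, whose windows do not hold these letters. FARSA, HARS1, KARS1 and RARS1 do not hold them either, and none of these was called higher in both lines. The share of all genes called higher in both lines was not counted. LARS1, VARS1, YARS1, EIF2S2, EIF3A and EIF4EBP1 had no entry in the table. A match is a description of letters, not evidence of binding. The core is in capitals below, 5′ to 3′ on the strand of the gene, with ASNS, an ATF4 target outside translation, for comparison.
AARS1: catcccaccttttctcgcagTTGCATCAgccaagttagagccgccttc
CARS1: cgcgacttccggggcggcggTTGCATCA
GARS1: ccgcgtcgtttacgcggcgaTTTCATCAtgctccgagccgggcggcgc
IARS1: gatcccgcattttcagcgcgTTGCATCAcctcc
NARS1: gccctcagatctacgctctcTGATGCAA
TARS1: ggggttagggcgcctttcgaTTGCATCA
ASNS: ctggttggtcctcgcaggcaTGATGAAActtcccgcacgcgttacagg

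These stretches lie at chr16:70289666-70289713 (AARS1, minus strand), chr11:3057418-3057445 (CARS1, minus), chr7:30594825-30594872 (GARS1, plus), chr9:92293698-92293730 (IARS1, minus), chr18:57621815-57621842 (NARS1, minus), chr5:33440947-33440974 (TARS1, plus) and chr7:97872449-97872496 (ASNS, minus). The AARS1 core begins at -187 from the start (the first base after the 250 upstream bases is 0), in the upstream promoter. The GARS1 and IARS1 cores begin at -33 and -13, and the CARS1 core, at -2, runs across the start. The NARS1 and TARS1 cores begin at 14 and 2, inside the transcribed part, and all but those of GARS1 and ASNS carry the same 8 letters on one strand or the other. CARS1, GARS1 and TARS1 had 2 windows each in the table and held the core in 1 of them.

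Among mitochondrial synthetases, LARS2 and WARS2, for leucine and tryptophan, rose with azacitidine in both lines. LARS2 read 335 and 330 with vehicle and 492 and 580 with 3 µM azacitidine in A549 (log2 0.64, interval 0.42 to 0.85, adjusted p = 4.85e-05), and 373 and 385 against 469 and 513 in H1299 (log2 0.35, adjusted p = 0.00691). The H1299 call was lost with median centring (adjusted p = 0.0854), with quantile normalization (0.113) and without 3 µM azacitidine replicate 2 (0.0725). In H1299 3 µM decitabine lowered it to 264 and 223 (log2 -0.58, interval -0.79 to -0.37, adjusted p = 1.96e-04), so that the 3 treatments stood apart. A second LARS2 probe set gave 0.47 in A549 and 0.12 in H1299 with 3 µM azacitidine. WARS2 rose by 0.59 in A549 and 0.47 in H1299.

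HARS2, the mitochondrial histidine enzyme, rose in H1299 by 0.50 with azacitidine (adjusted p = 0.00442) and fell with decitabine by 0.38 in A549 and 0.39 in H1299. Its H1299 decitabine arrays, at 528 and 362, overlapped the vehicle arrays at 662 and 514. The decitabine call was lost without any 1 of the 4 arrays in A549, and without vehicle replicate 1 or decitabine replicate 2 in H1299. The azacitidine call was lost without H1299 vehicle replicate 2 (adjusted p = 0.107). SARS2, for serine, rose with azacitidine in A549 (log2 0.39, adjusted p = 0.00634) and stood at -0.10 in H1299 (interval -0.32 to 0.12), with a called line difference (-0.49). IARS2, for isoleucine, was the 1 member called with 0.3 µM azacitidine in H1299, from 2092 and 2090 to 2495 and 2517 (log2 0.26, interval 0.11 to 0.41, adjusted p = 0.0381). At 3 µM it was lower than vehicle with either drug in that line, by 0.17 with azacitidine, reading 1990 and 1721, and by 0.21 with decitabine, reading 1890 and 1721, and both calls were lost without either vehicle array. FARS2, for phenylalanine, was not called by its brightest probe set in any comparison of 3 µM or of drug against drug. Its other probe set was called lower with 3 µM decitabine in A549 (-0.50, limma adjusted p = 0.0101).

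Among the initiation genes, EIF4EBP1 differed between the drugs at every matched dose in both lines. It encodes the 4E-binding protein that blocks eIF4E until it is phosphorylated. In A549 its signal was 1380 and 1492 with vehicle, 1837 and 1922 with 0.3 µM azacitidine, 2730 and 2999 with 1 µM, and 2553 and 2600 with 3 µM (1.78-fold, log2 0.83, interval 0.68 to 0.98, adjusted p = 1.62e-08). With decitabine it was 1153 and 1235, 1063 and 1170, and 1091 and 991 at the 3 doses, all below the vehicle arrays (log2 -0.45 at 3 µM, adjusted p = 8.60e-05). In H1299 it read 1239 and 1244 with vehicle, 1896 and 1922 with 1 µM azacitidine (log2 0.61), and 1397 and 1415 with 3 µM (log2 0.18, adjusted p = 0.0447, a call lost without any 1 of the 4 arrays and with median centring). With 3 µM decitabine it fell to 817 and 794 (log2 -0.60, interval -0.75 to -0.46, adjusted p = 1.47e-06).

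EIF4EBP2, a relative of the same function, rose in H1299 from 396 and 366 to 631 and 661 with 3 µM azacitidine (log2 0.72, interval 0.40 to 1.03, adjusted p = 3.77e-04). In A549 the 3 µM arrays, at 266 and 224, overlapped the vehicle arrays at 237 and 215. The cap-binding and scaffold factors EIF4E, EIF4G1 and EIF4G2 were not called with 3 µM azacitidine in either line, with differences between -0.09 and 0.11 for their brightest probe sets. Another EIF4E probe set was called lower in H1299 (-0.46, limma adjusted p = 0.00110), and the other EIF4G1 probe set stood at -0.25 in A549 and -0.29 in H1299, neither called. EIF4G1 fell with 3 µM decitabine in A549, from 1043 and 961 to 873 and 772 (log2 -0.28, adjusted p = 0.0346), a call lost without vehicle replicate 1 or 3 µM replicate 2. Its other probe set was called at -0.92 in A549 (limma adjusted p = 4.88e-05) and at -0.42 in H1299 (adjusted p = 0.0277). In A549 an EIF4E probe set other than the brightest was also called lower with decitabine (-0.55).

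Of the factors that act at the start codon, EIF5, which triggers GTP hydrolysis by eIF2, rose with azacitidine in both lines. Its signal was 4184 and 4825 with vehicle and 6779 and 6861 with 3 µM in A549 (log2 0.60, adjusted p = 1.49e-05), and 6058 and 6504 against 9531 and 10318 in H1299 (log2 0.66, adjusted p = 1.86e-06). Its other 4 probe sets were all called higher in H1299 (0.46 to 1.33), and 3 of them in A549, where the other stood at -0.03. EIF1 rose by 0.25 in A549 (adjusted p = 0.0491) and stood at 0.23 in H1299 (adjusted p = 0.0602), and the A549 call was lost with median centring (adjusted p = 0.220) and without vehicle replicate 1 or 3 µM replicate 2. The probe set used for EIF1, its brightest, gave the smallest differences of its 5: the other 4 were all called higher in H1299 (0.53 to 0.63), and in A549 3 of them were called (0.39 to 0.48). EIF1AX, which encodes eIF1A, was not called with 3 µM azacitidine by its brightest probe set and fell with 3 µM decitabine in A549, from 6694 and 6407 to 4382 and 4917 (log2 -0.49, interval -0.74 to -0.25, adjusted p = 0.00344). That call was lost without replicate 1 of the decitabine group. The probe sets of EIF1AX disagreed: with 3 µM azacitidine 1 was called at -1.64 in H1299, where the one used here stood at -0.21, and another was called at 0.34 in A549, where the one used stood at -0.03.

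The eIF2 subunits did not move as 1 unit. EIF2S1, the alpha subunit on which the kinases act, rose in A549 by 0.40 (adjusted p = 0.00106) and stood at -0.00 in H1299 (interval -0.19 to 0.18). EIF2S2, the beta subunit, rose by 0.44 and 0.26. A second EIF2S2 probe set gave 0.00 and -0.22, and with the mean of the probe sets the EIF2S1 and EIF2S2 calls at 3 µM were lost. EIF2S3, the gamma subunit, fell in H1299 from 522 and 584 to 335 and 346 with 3 µM azacitidine (log2 -0.65, interval -0.97 to -0.33, adjusted p = 0.00114), and read 396 and 550 against 612 and 533 in A549, where the groups overlapped.

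In eIF2B, the exchange factor that reloads eIF2 with GTP, EIF2B2, EIF2B4 and EIF2B5 rose with 3 µM azacitidine in both lines while EIF2B1 did not. EIF2B4 rose by 0.53 in A549 and 0.35 in H1299, EIF2B5 by 0.42 and 0.34, and EIF2B2 by 0.35 and 0.32. Median centring ended the H1299 calls of these 3 genes (adjusted p = 0.0502 for EIF2B4, 0.0934 for EIF2B5 and 0.151 for EIF2B2). For EIF2B2 in A549, dropping vehicle replicate 1 or 3 µM replicate 2 also ended the call (limma adjusted p = 0.0829 and 0.0559). EIF2B1 fell in H1299 from 1620 and 1771 to 1371 and 1303 (log2 -0.33, interval -0.52 to -0.15, adjusted p = 0.00263) and stood at -0.19 in A549 (adjusted p = 0.0980). Decitabine at 3 µM moved the subunits apart: EIF2B5 fell in A549 from 356 and 331 to 264 and 219 (log2 -0.46, adjusted p = 0.00170), whereas EIF2B2 rose from 1134 and 1259 to 1430 and 1497 (log2 0.29, adjusted p = 0.0379). In H1299, decitabine raised EIF2B4 from 945 and 1067 to 1268 and 1318, and EIF2B2 from 1633 and 1672 to 1929 and 2305, each by 0.35. A second EIF2B4 probe set stood at 0.11 there, and with 3 µM azacitidine at 0.40 in A549 and 0.21 in H1299.

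For eIF3, the large complex that holds the small ribosomal subunit, 2 subunits were members. EIF3A rose in A549 from 5525 and 5613 to 8411 and 8251 with 3 µM azacitidine (log2 0.58, adjusted p = 4.97e-06). In H1299 the probe set used stood at 0.41 (adjusted p = 1.36e-04), but another EIF3A probe set was called in the opposite direction at -0.43, so its H1299 direction is uncertain although it is counted among the 21 members that rose. EIF3B rose with azacitidine in A549 by 0.26 (adjusted p = 0.00247), and with 3 µM decitabine in H1299 from 3186 and 3099 to 4082 and 4062 (log2 0.37, interval 0.24 to 0.50, adjusted p = 1.46e-04).

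**Figure D3:**
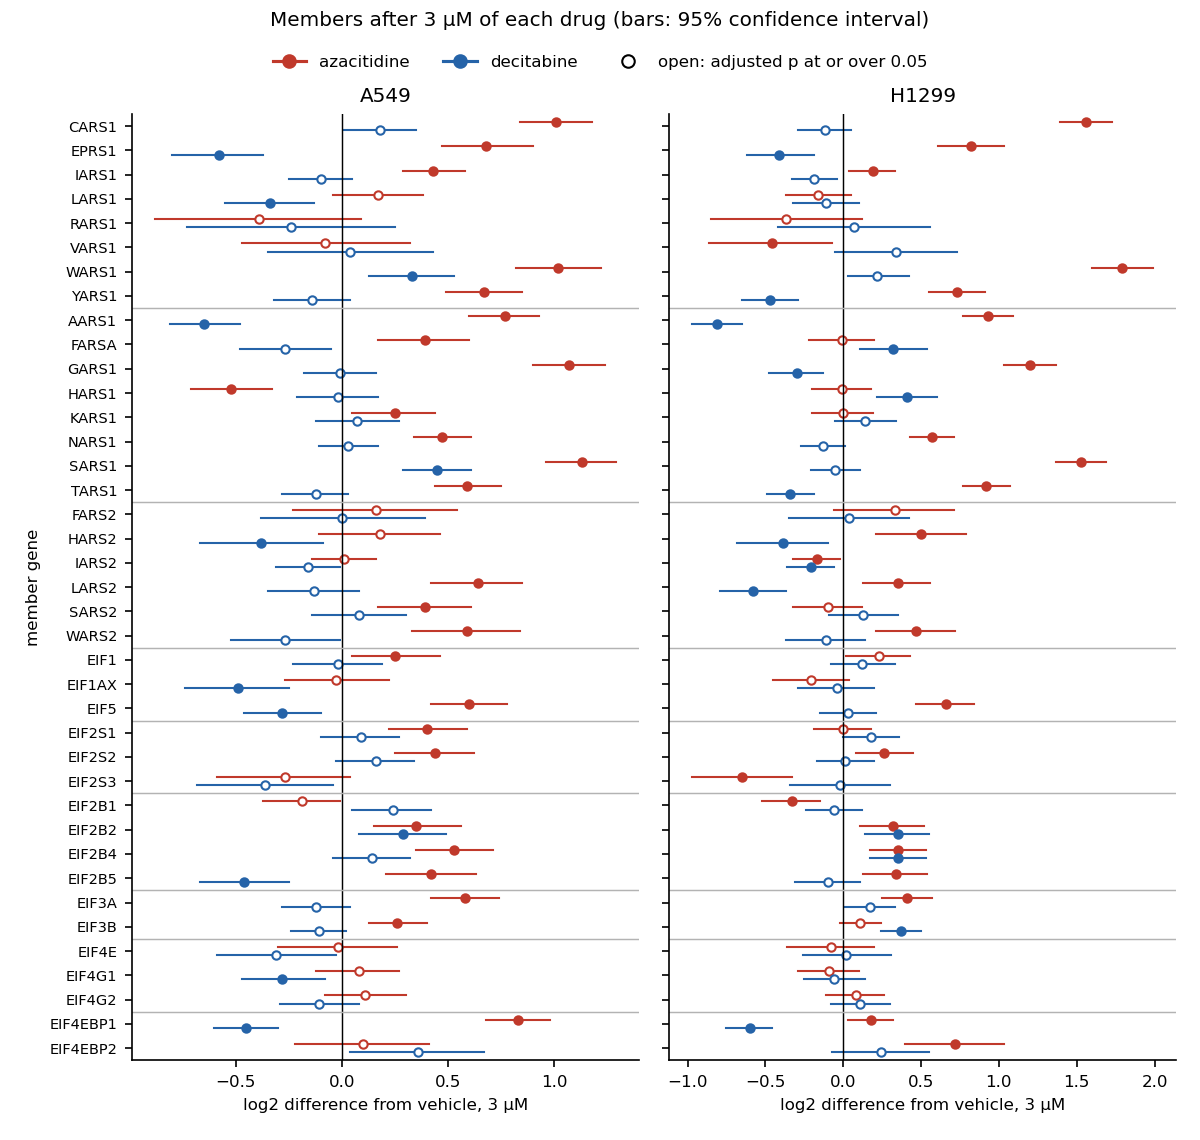
Log2 difference from the line's vehicle at 3 µM (horizontal, with 95% confidence interval) for the 39 members (vertical, by role); red is azacitidine, blue decitabine, and filled points have an adjusted p under 0.05. In both panels the azacitidine points of the cytosolic synthetases lie mostly to the right of 0, up to 1.13 in A549 and 1.79 in H1299, and the decitabine points lie between -0.81 and 0.45.

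With 3 µM decitabine the synthetases that rose in A549 were SARS1 and WARS1. SARS1 went from 1073 and 1172 to 1580 and 1510 (log2 0.45, interval 0.29 to 0.61, adjusted p = 2.23e-04), above both vehicle arrays. WARS1 went from 757 and 926 to 1173 and 958 (log2 0.33, adjusted p = 0.0140), a call lost without vehicle replicate 1 or decitabine replicate 1. In H1299, SARS1 stood at -0.05 (interval -0.21 to 0.11) and WARS1 at 0.22 (interval 0.03 to 0.42, adjusted p = 0.0787), and the synthetases that rose were HARS1 and FARSA, the latter by 0.32, a call lost without vehicle replicate 2 or decitabine replicate 2. Besides AARS1, decitabine lowered EPRS1 in both lines, by 0.58 in A549 and 0.41 in H1299, LARS1 by 0.34 in A549, and YARS1, TARS1 and GARS1 by 0.47, 0.34 and 0.30 in H1299. EIF5 fell by 0.28 in A549. The A549 calls of LARS1, EIF5 and EIF2B2 and the H1299 calls of EPRS1, GARS1, EIF2B2 and EIF2B4 were each lost without 1 array. AARS1, EIF4EBP1, HARS1, EIF3B, LARS2, TARS1 and YARS1 in H1299, and AARS1, EPRS1, EIF2B5, EIF4EBP1 and SARS1 in A549, kept their decitabine calls when any 1 array was left out.

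The drugs were compared directly at each matched dose, 6 pairs of line and dose in all, with p-values adjusted over genes within a pair. At 0.3 µM, 10 of 39 members were higher with azacitidine than with decitabine in A549 and 0 lower by limma (15 and 1 at an unadjusted p under 0.05), against 2.07% and 3.63% of all genes, and 3 were higher and 1 lower in H1299 (2.36% and 4.03%). At 1 µM, 24 were higher and 2 lower in A549 (16.4% and 17.9% of all genes), and 18 higher and 8 lower in H1299 (19.0% and 15.0%). At 3 µM the counts were 27 and 2 in A549 (26.6% and 23.8%) and 19 and 6 in H1299 (33.0% and 23.3%). Over the 3 doses together, 27 were higher and 4 lower in A549 (27.9% and 26.5% of all genes), and 18 higher and 8 lower in H1299 (30.9% and 23.1%). The A549 count of 4 was 2 without azacitidine 1 µM replicate 1, decitabine 0.3 µM replicate 2 or decitabine 1 µM replicate 1. Median centring gave 17 higher and 12 lower in H1299, with 24.1% and 28.4% of all genes. Adjusting the p-values over all 6 pairs together, a choice made after seeing the data, left the counts at 1 and 3 µM as they were. At 0.3 µM it gave 13 higher and 1 lower in A549 and 8 higher and 2 lower in H1299. The share of all genes called under this adjustment was not counted, so these counts do not stand beside the percentages above.

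AARS1, EIF4EBP1 and YARS1 separated the drugs from the lowest dose on in both lines. For AARS1, azacitidine exceeded decitabine at 0.3, 1 and 3 µM by 0.53, 1.29 and 1.41 in A549 and by 0.42, 1.17 and 1.74 in H1299 on the log2 scale, all 6 called. For EIF4EBP1 the differences were 0.64, 1.33 and 1.28 in A549 and 0.29, 0.99 and 0.78 in H1299, again all called. YARS1 differed by 0.62, 1.02 and 0.81 in A549 and by 0.35, 1.27 and 1.20 in H1299, also all called. With p-values adjusted over the 6 pairs together, IARS1, LARS2 and EIF2B5 were likewise called higher with azacitidine in all 6. Over the 3 doses, AARS1 differed by 1.08 in A549 (interval 0.98 to 1.17, adjusted p = 4.41e-14) and 1.11 in H1299 (interval 1.01 to 1.20, adjusted p = 1.97e-14), and EIF4EBP1 by 1.09 (interval 1.00 to 1.17) and 0.69 (interval 0.60 to 0.77). The difference at 3 µM was 2.66-fold for AARS1 in A549 and 3.34-fold in H1299.

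For SARS1, CARS1, GARS1 and WARS1 the drugs parted mainly at 1 µM and above. At 0.3 µM in H1299 their differences were 0.16 (interval -0.00 to 0.33), 0.09 (interval -0.08 to 0.26), 0.21 (interval 0.04 to 0.39) and 0.02 (interval -0.17 to 0.22), none of them called. At 1 µM in H1299 they were 1.43, 1.45, 1.47 and 1.36, and at 3 µM 1.58, 1.68, 1.50 and 1.57. In A549, CARS1 and GARS1 were called at 0.3 µM (0.54 and 0.45), and SARS1 and WARS1 were not (0.26 and 0.12). Over the 3 doses together the difference was 0.89 for GARS1 in A549, and 1.07 for CARS1, 1.06 for SARS1 and 1.06 for GARS1 in H1299.

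In both lines, HARS1, RARS1 and EIF2B1 were lower with azacitidine than with decitabine over the 3 doses. HARS1 differed by -0.24 in A549 and -0.34 in H1299, EIF2B1 by -0.18 and -0.32, and RARS1 by -0.37 and -0.49. The RARS1 decitabine arrays in H1299 read 4348 and 4498, 4818 and 3517, and 3363 and 3753 by dose, against 3409 and 2776, 2845 and 2874, and 2154 and 3178 with azacitidine, groups that did not overlap at any dose. In A549 the RARS1 call was lost without any 1 of 5 arrays, as was, without any 1 of 6, that of EIF4EBP2 (-0.23), whose arrays with 1 µM read 178 and 228 with azacitidine and 323 and 264 with decitabine. In H1299, VARS1 was lower with azacitidine by 0.57 (interval -0.80 to -0.34, adjusted p = 1.48e-04), reading 808 and 735 at 3 µM against 1355 and 1380 with decitabine. FARSA was lower by 0.36 in H1299, where it read 676 and 705 against 808 and 952 at 3 µM, and higher by 0.24 in A549, where it read 434 and 398 against 243 and 264. EIF3B likewise was called lower in H1299 (-0.21) and higher in A549 (0.19).

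The members whose drug difference over the 3 doses was not called were 8 in A549 and 13 in H1299. Both lists held EIF4G1, with intervals of -0.07 to 0.16 in A549 and -0.15 to 0.08 in H1299, and IARS2, with intervals of -0.03 to 0.14 in both lines. FARS2 had wider intervals, -0.20 to 0.25 and -0.25 to 0.20. For EIF4G1 in A549 the mean over doses joins opposite signs: -0.26 at 0.3 µM, 0.03 at 1 µM and 0.35 at 3 µM, the last called. In A549 the other probe sets of FARS2 (0.40, adjusted p = 2.42e-04) and EIF4G1 (0.28, adjusted p = 0.00552) were called higher with azacitidine in limma's fit of single probe sets. In H1299, KARS1 had an interval of -0.12 to 0.11 and EIF1AX one of -0.21 to 0.07, though another EIF1AX probe set was called at -0.56. In A549, EIF2B2 had an interval of -0.07 to 0.17.

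In vehicle levels the members differed between the lines about as often as all genes did: 15 of 39 were higher and 8 lower in H1299 than in A549, against 32.9% and 32.4% of all genes. VARS1 was higher in H1299 by 1.32 (interval 0.93 to 1.72), FARSA by 1.09, EIF4G1 by 0.71, EIF4EBP2 by 0.68 and SARS1 by 0.62 on the log2 scale. AARS1 and CARS1 were lower by 0.42 and 0.43, and IARS2 by 0.39.

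The response to 3 µM azacitidine was tested between lines as an interaction, in which 6 members had a higher log2 difference in H1299 and 4 a lower one, against 17.5% and 13.9% of all genes. WARS1 (difference of responses 0.77, interval 0.49 to 1.05), CARS1 (0.55), SARS1 (0.40) and TARS1 (0.33) rose more in H1299. EIF4EBP1 rose less there (-0.65, interval -0.87 to -0.44, adjusted p = 4.81e-05), and HARS1, which fell in A549, was not called in H1299 (line difference 0.51). Of the 25 members that rose in A549 and the 21 that rose in H1299, 19 were the same genes. Of all genes, 22.1% and 32.3% were called higher in the respective lines. The share called higher in both was not counted, so the overlap has no background to stand beside. For 3 µM decitabine, 3 members had a positive and 2 a negative line difference (7.90% and 9.42% of all genes): EIF3B (0.48), FARSA (0.59) and HARS1 (0.43) on one side, SARS1 (-0.50) and LARS2 (-0.45) on the other. AARS1 showed no called line difference with either drug, at 0.17 and -0.16. The labels name no separate cultures of a line, so a difference between lines cannot be told apart from one between cultures.

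**Figure D4:**
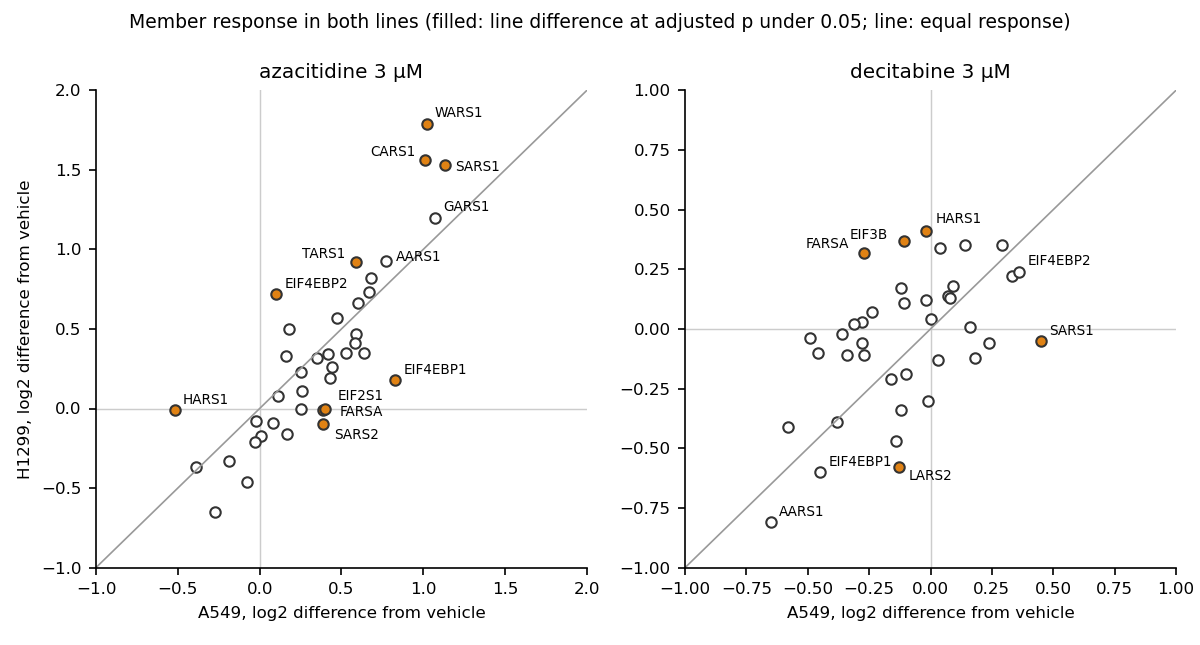
Log2 difference from vehicle at 3 µM in A549 (horizontal) and H1299 (vertical) for the 39 members, azacitidine left and decitabine right; filled points have a line difference with an adjusted p under 0.05, and the diagonal marks an equal response. WARS1, CARS1 and SARS1 lie above the diagonal with azacitidine, EIF4EBP1 below it, and AARS1 is the lowest member with decitabine in both lines.

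Other genes of the pathway were followed for comparison. Their counts stand beside 22.1% of all genes higher and 16.2% lower with 3 µM azacitidine in A549 and 32.3% and 21.6% in H1299, and with 3 µM decitabine beside 15.0% and 10.8%, and 16.3% and 14.6%. Of 7 further synthetases and partners tested, 3 rose with 3 µM azacitidine in each line: AIMP1, a scaffold of the multisynthetase complex (0.58 in A549 and 0.56 in H1299), NARS2, the mitochondrial asparagine enzyme (0.41 and 0.39), and QRSL1, part of the mitochondrial enzyme that makes glutaminyl-tRNA (0.48 and 0.61). With 3 µM decitabine, 3 of the 7 fell in A549 and 5 in H1299, among them YARS2, the mitochondrial tyrosine enzyme (-0.76 and -0.94). Of 25 further initiation factors, 9 rose and 1 fell with azacitidine in A549, and 4 rose and 5 fell in H1299, with medians of 0.18 and -0.12. The share called higher in H1299 was thus below that of all genes. EIF3D rose in both lines (0.68 and 0.71), and EIF5A, which helps ribosomes through prolines, fell in both (-0.25 and -1.02). Of 6 elongation and release factors, 2 rose with azacitidine in A549, and 1 rose and 1 fell in H1299. EEF1A2, an elongation factor, rose with 3 µM decitabine by 0.72 in A549 and 0.95 in H1299.

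Of 4 eIF2 kinase and phosphatase genes tested, PPP1R15A, which directs a phosphatase to eIF2, rose with 3 µM azacitidine by 0.98 in A549 and 2.39 in H1299. EIF2AK2, the kinase PKR, fell with decitabine in both lines (-0.87 and -0.91) and with azacitidine in H1299 (-0.63). EIF2AK3, the kinase PERK, fell with azacitidine in A549 (-0.37) and rose in H1299 (0.50). Of 11 ATF4 targets outside translation, including ATF4 itself, 10 rose with 3 µM azacitidine in each line, with medians of 1.15 and 1.60. The largest were TRIB3 (2.62 and 4.16), DDIT3 (2.11 and 4.55) and ATF3 (2.75 and 3.14). With 3 µM decitabine, 1 rose and 5 fell in A549, and 4 rose and 5 fell in H1299, where ASNS fell by 1.49, PHGDH by 1.32 and SLC7A11 by 1.17. Over the 3 matched doses all 11 were higher with azacitidine than with decitabine in each line, where 27.9% of all genes were in A549 and 30.9% in H1299, by 2.01 and 2.25 for TRIB3 and 1.85 and 2.20 for ASNS. Of the 12 listed ATF4 targets, 11 had a promoter in the table, and 4 of those held the core TGATGNAA (36.4%).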

How the data were processed

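Total RNA was labelled and hybridised to 28 one-colour Affymetrix arrays, 2 for each of 14 groups. The authors deposited MAS5 signal intensity on a linear scale, per the labels; the version and scaling target are not given in the sources used here. The 2% trimmed mean of the deposited arrays lay between 500.125 and 500.159. Of 22277 probe sets, the platform table named 1 gene for 19070, several for 1043 and none for 2164. Probe sets brighter than their array's median on 2 or more arrays passed the filter, and each gene took its brightest passing probe set by mean signal, giving 8024 genes.

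A limma 3.58.1 model (R 4.3.3) with 1 mean per group and an intensity trend was fitted to log2(signal + 32), with 14 residual degrees of freedom and 23 comparisons. The pseudocount of 32 draws fold changes of dim genes toward 0. P-values were adjusted by Benjamini-Hochberg over all genes within a comparison. The analysis was tested on simulated data. Array number limits the precision; replicate arrays correlated at 0.9889 to 0.9937. The label of 1 array, replicate 1 of 3 µM decitabine in A549, marks it as a repeat.

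The members, pathway lists and tests were chosen with earlier results of these data known. Members called in the main comparisons are described by role, with signals for the 3 largest rises and falls, and other pathway genes by their 3 largest called changes in each direction, together with examples chosen after their values were seen. Alternatives covered normalization, pseudocount, filter, probe sets, design and each array left out.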

Additional observations from a re-analysis of the deposited data

Results flagged for a closer look

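The response to 3 µM azacitidine differed between H1299 and A549 for 10 members by limma's interaction test, each value being the H1299 log2 difference minus the A549 one. It was above 0 for WARS1 (0.77, adjusted p = 1.60e-04), CARS1 (0.55, adjusted p = 0.00108), EIF4EBP2 (0.62, adjusted p = 0.0310), HARS1 (0.51, adjusted p = 0.00472), SARS1 (0.40, adjusted p = 0.00835) and TARS1 (0.33, adjusted p = 0.0215). It was below 0 for EIF4EBP1 (-0.65, adjusted p = 4.81e-05), SARS2 (-0.49, adjusted p = 0.0176), EIF2S1 (-0.41, adjusted p = 0.0176) and FARSA (-0.39, adjusted p = 0.0434). Of all genes, the azacitidine test called 17.5% above 0 and 13.9% below 0. For 3 µM decitabine the lines differed for FARSA (0.59, adjusted p = 0.00741), EIF3B (0.48, adjusted p = 7.91e-04), HARS1 (0.43, adjusted p = 0.0250), LARS2 (-0.45, adjusted p = 0.0362) and SARS1 (-0.50, adjusted p = 0.00336). The decitabine test called 7.90% and 9.42% of all genes. With either drug the members were called no more often than all genes. HARS1, SARS1 and FARSA differed between the lines with both drugs, and for SARS1 and FARSA the sign was opposite with the other drug. The line differences of the 2 drugs share the vehicle arrays of each line.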

How the results depend on the processing

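Of 134 member calls in the 6 main comparisons, none was lost or reversed with the replicate number as a block (a replicate block in each line) or with a larger pseudocount, and 6 were lost with quantile normalization, 13 with median centring, 8 without a filter, 12 in a fit of 1 line and 10 without the intensity trend. The mean of a gene's probe sets ended 4 calls and reversed 1, EIF3A between drugs in H1299, to -0.02 (adjusted p = 0.707). The deviation of replicate 1 from its group mean correlated between groups at -0.25 to 0.27 in A549 (median 0.03). In H1299 the range was -0.08 to 0.16 (median 0.00). These values do not settle whether the replicate numbers pair the samples. The most demanding alternative, a limma treat test of a log2 difference beyond 0.5, kept 29 of the 134 calls: with azacitidine 3 µM 6 higher and 0 lower in A549 and 8 and 0 in H1299, with decitabine 3 µM 0 and 0, and 0 and 1, and between drugs 6 and 0, and 8 and 0. Of all genes, that test called 2.11% higher and 2.59% lower with azacitidine 3 µM in A549 and 9.07% and 6.01% in H1299. With decitabine 3 µM it called 1.41% and 0.374%, and 2.32% and 0.972%. Between drugs it called 1.46% and 3.46%, and 2.24% and 2.94%. Calls lower with 3 µM azacitidine numbered 2 in A549 with quantile normalization or median centring, and 2 in H1299 without a filter or without the trend. Leaving out 1 array at a time gave, with azacitidine 3 µM, 22 to 24 higher and 1 to 3 lower in A549 and 17 to 20 and 2 to 3 in H1299. With decitabine 3 µM it gave 1 to 5 and 6 to 7 in A549 and 3 to 5 and 5 to 9 in H1299. Between drugs it gave 26 to 28 and 2 to 4 in A549 and 17 to 18 and 6 to 9 in H1299. In each of these runs a smaller share of all genes was called, in either direction, than with all arrays, so lower member counts are not particular to the members. With 2 arrays a group, a group left with 1 array is assumed to vary like the others.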
